A study of Arabidopsis thaliana with 48 samples.

Results

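The genes followed were 5 glucosyltransferase genes of Arabidopsis thaliana: UGT76B1 (AT3G11340), UGT74F2 (AT2G43820), UGT74F1 (AT2G43840), UGT74E2 (AT1G05680) and UGT75B1 (AT1G05560). They were matched by their gene identifiers and are 5 of the 33602 genes in the deposited count table. Their choice used no threshold on measured values but was made with earlier results of these data known. The card1 seedlings carry the allele card1-2, a mutation of the receptor kinase gene CARD1, in a wild-type line that expresses the calcium reporter aequorin. The WT seedlings are that aequorin line itself, so both genotypes carry the reporter. Whole Col-0 seedlings were used at an age of 7 days, after growth in liquid half-strength Murashige-Skoog medium with sucrose under long days. They received 5 µM DMBQ (2,6-dimethoxy-1,4-benzoquinone, a quinone related to lignin breakdown products) or an equal volume of DMSO, in which it was dissolved. Messenger RNA was sequenced at 0, 0.5, 1 and 6 h, which with 2 genotypes and 2 agents gave 16 groups of 3 libraries. The comparison of card1 with WT asks whether the response to DMBQ depends on the receptor. The labels do not say that replicates were separate cultures, so the p-values measure the spread between these libraries, which may be technical.

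Family 1 plant glucosyltransferases move glucose from UDP-glucose onto small acceptors, and the added sugar usually inactivates a hormone, stores it, or makes a foreign compound more soluble. UGT74F2 forms the glucose ester of salicylic acid, and UGT74F1 mainly its glucoside. UGT76B1 glucosylates salicylic acid, isoleucic acid and the immune signal N-hydroxypipecolic acid. UGT74E2 conjugates the auxin precursor indole-3-butyric acid and is known as a strongly inducible oxidative stress gene, and UGT75B1 accepts auxin and abscisic acid among other acids.

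In the TAIR10.1 annotation UGT74F2 (chromosome 2, 18152078 to 18153908, plus strand, 2 exons) and UGT74F1 (chromosome 2, 18157529 to 18159231, plus strand, 2 exons) lay 3620 bases apart with 0 protein-coding genes between them. Their transcripts were identical at 83.2% of aligned bases, the highest value among the 10 pairs of these genes. UGT76B1 lay on chromosome 3 (3556554 to 3558361, plus strand, 2 exons). UGT74E2 (chromosome 1, 1703002 to 1704838, minus strand, 2 exons) and UGT75B1 (chromosome 1, 1645300 to 1647435, minus strand, 1 exon) were 55566 bases apart, with 15 protein-coding genes between them. No 50-base window of the UGT74F1, UGT74F2 or UGT76B1 transcripts occurred more than once in the genome, and 0.64% of the windows of UGT74E2 and 1.49% of those of UGT75B1 did. UGT75B1 lies wholly within a non-coding gene of the opposite strand, AT1G05562, and how the counting treated strand is not given in the sources used here. AT1G05562 held 2947 counts over all libraries, against 14167 for UGT75B1, and its own level was 10.6 to 18.5 CPM in the 6 h libraries against 3.21 to 5.63 CPM in the 0 h libraries.

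The promoters of UGT76B1, UGT74F2, UGT74E2 and UGT75B1 are given from 250 bases before to 50 bases after the annotated start. The first pair was higher with DMBQ than with DMSO in both genotypes, and the second pair declined steeply with time. The promoters were read from the TAIR10.1 reference on the gene's strand. They lie at chr3:3556304-3556603 (plus), chr2:18151828-18152127 (plus), chr1:1704789-1705088 (minus) and chr1:1647386-1647685 (minus), and capitals mark a motif match.
UGT76B1: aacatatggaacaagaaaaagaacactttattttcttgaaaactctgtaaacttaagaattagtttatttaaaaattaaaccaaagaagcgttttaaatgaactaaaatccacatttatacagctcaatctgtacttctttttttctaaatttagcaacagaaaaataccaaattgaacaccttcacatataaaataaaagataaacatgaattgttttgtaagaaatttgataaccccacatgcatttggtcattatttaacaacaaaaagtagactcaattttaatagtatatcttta
UGT74F2: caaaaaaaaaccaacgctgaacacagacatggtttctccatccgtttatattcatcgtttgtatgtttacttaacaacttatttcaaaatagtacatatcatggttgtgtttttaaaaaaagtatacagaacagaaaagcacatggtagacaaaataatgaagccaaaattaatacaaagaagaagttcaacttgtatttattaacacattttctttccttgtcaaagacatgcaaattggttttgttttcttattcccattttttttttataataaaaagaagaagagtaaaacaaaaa
UGT74E2: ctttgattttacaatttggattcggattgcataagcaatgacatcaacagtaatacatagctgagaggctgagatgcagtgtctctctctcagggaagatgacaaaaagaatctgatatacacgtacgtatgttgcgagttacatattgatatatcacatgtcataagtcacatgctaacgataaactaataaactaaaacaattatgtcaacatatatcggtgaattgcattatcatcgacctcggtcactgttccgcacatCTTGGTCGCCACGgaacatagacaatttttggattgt
UGT75B1: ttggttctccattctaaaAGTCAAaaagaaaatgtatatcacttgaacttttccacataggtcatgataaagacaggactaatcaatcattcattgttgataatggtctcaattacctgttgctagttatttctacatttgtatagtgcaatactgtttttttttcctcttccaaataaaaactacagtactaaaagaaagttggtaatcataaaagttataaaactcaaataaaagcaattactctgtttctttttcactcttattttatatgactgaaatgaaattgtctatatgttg
Motifs were searched on both strands as exact letters: the TGA factor core TGACG, the W-box as TTGACC and TTGACT, and the G-box CACGTG. The mitochondrial dysfunction motif was searched as a pattern of CTTG, any 5 bases, CA, any base and G. UGT74E2 held a match to this pattern, with its first base at position 14 after the start. The pattern was found in 2.1% of the 27443 promoters of that length. UGT75B1 held TTGACT on the reverse strand, 232 bases before the start, as 21.8% of promoters did on either strand. No searched motif was in the windows of UGT76B1, UGT74F2 or UGT74F1, where TGACG is found in 23.1%, TTGACC in 14.2% and CACGTG in 7.7% of promoters. Such matches describe letters and say nothing about binding.

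Library depth was 4764682 to 14492051 gene counts. Levels are given as CPM, the count scaled to a common library size after TMM normalization. All 5 genes passed the filter on low counts with 19839 genes in all. CARD1, the mutated gene, stood at 17.7 to 34.7 CPM in the 24 card1 libraries and at 66.7 to 99.8 CPM in the 24 WT libraries. In all, 5 libraries stood apart by a fall of counts with transcript length, with a Spearman correlation between length and deviation of -0.51 to -0.39, against -0.21 to 0.18 in the other 43. They were all 3 of WT with DMBQ at 0.5 h, and replicates 1 and 2 of card1 in DMSO at 0 h. The summed level of 8 shoot marker genes was 25600 to 39800 CPM in card1 and 21300 to 33000 CPM in WT. That of 8 root markers was 1690 to 2990 CPM over all libraries, and no marker was at 0 in all 3 libraries of a group. Within card1, replicate 3 held the highest UGT74F2 value in 8 of 8 groups and the highest UGT75B1 value in 7 of 8. In WT replicate 3 was highest in 6 of 8 groups for each of these 2 genes. For UGT74E2 and UGT76B1 it was highest in 6 of 8 each in card1, and in 3 and 2 of 8 in WT. For UGT74F1 it was highest in 3 of 8 in each genotype. In bulk seedlings, fewer cells of a type and less RNA per cell cannot be told apart.

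Per kilobase of transcript, the median level over the 48 libraries was 61.9 CPM per kb for UGT74F2, 12.5 for UGT76B1, 10.3 for UGT75B1, 2.13 for UGT74E2 and 1.7 for UGT74F1. The highest group mean was 51.9 times the lowest for UGT74E2, 15.6 times for UGT75B1, 3.51 times for UGT76B1, 2.52 times for UGT74F1 and 2.15 times for UGT74F2. With the 16 groups of a gene ordered by mean, the libraries of neighbouring groups overlapped in 15 of 15 neighbouring pairs for UGT74F1 and in 14 of 15 for each of the others. The gap in the order stood below WT with DMBQ at 1 h for UGT74F2, below both DMBQ groups at 1 h for UGT76B1, and below WT in DMSO at 1 h for UGT74E2 and UGT75B1.

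Against DMSO at the same time, UGT76B1 and UGT74F2 were higher with DMBQ in both genotypes, and UGT74E2 in WT. In the model of all 48 libraries, only UGT76B1 was also called higher than its own 0 h level with DMBQ. The UGT74E2 call was kept under 9 of the 15 alternatives tried. In card1 at 1 h, 2 of the 5 genes were called by edgeR's quasi-likelihood test (adjusted p under 0.05), both higher, against 1.18% of all genes called in that comparison. In WT at 1 h, 3 of 5 were called, all higher, against 2.78% of all genes. At 6 h 1 of 5, UGT74F2, was called in each genotype, in both cases higher, where 1.05% of all genes were called in card1 and 1.22% in WT. At 0.5 h, 0 of 5 were called in either genotype (0.151% of all genes in card1, 2.45% in WT). DESeq2 called 0 in both at that time, and an unadjusted p under 0.05 was reached by 0 in card1 and by 1, UGT76B1, in WT. At 0 h, 0 of 5 were called in either genotype by edgeR or DESeq2 and 0 had an unadjusted p under 0.05. At that time 5.45% of all genes were called in card1 and 0.126% in WT. Those WT calls were 25 genes, and 46 with the replicate number as a block. The card1 calls were 1082 genes, 1557 with that block and 6 after correction of the trend with transcript length. In the joint test over 0.5, 1 and 6 h, 2 of 5 passed in each genotype, where 1.89% of all genes passed in card1 and 5.27% in WT. They were UGT74F2 (adjusted p 0.000144 in card1 and 2.67e-07 in WT) and UGT76B1 (adjusted p 1.97e-06 in card1 and 1.1e-06 in WT). The card1 value of UGT74F2 did not pass without the libraries of replicate number 1 (adjusted p 0.0907). In WT, UGT75B1 also passed with DESeq2 (adjusted p 0.0243), which called 3 of 5 there and 2 of 5 in card1. UGT74E2 did not pass in WT (adjusted p 0.0527), but did without the libraries of replicate number 3 (adjusted p 0.0232).

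**Figure D1:**
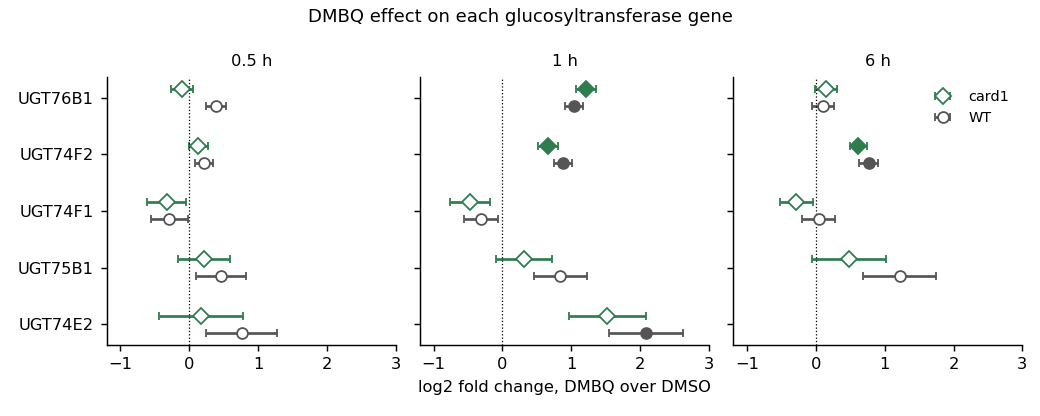
Log2 fold change of DMBQ over DMSO (x axis) for each gene (y axis) at 0.5, 1 and 6 h, with bars of 1 SE; green diamonds are card1, grey circles WT, and filled symbols passed the test at an adjusted p under 0.05. UGT76B1 and UGT74F2 are filled in both genotypes at 1 h and UGT74F2 again at 6 h; UGT74E2 is left out at 6 h because its groups held 3 to 8 counts.

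UGT76B1, the N-hydroxypipecolic acid and salicylic acid glucosyltransferase, rose with DMBQ at 1 h in both genotypes. At 1 h card1 seedlings held 39.7, 39.4 and 58.6 CPM with DMBQ, against 17.9, 20.1 and 20.7 CPM with DMSO. WT seedlings at 1 h held 50.2, 56.7 and 55.6 CPM with DMBQ, against 24.3, 23.6 and 30.7 CPM with DMSO. In both genotypes every DMBQ library lay above every DMSO library. The log2 fold change was 1.21 ± 0.15 in card1 (SE, 3 libraries a group; adjusted p 2.1e-07) and 1.04 ± 0.13 in WT (adjusted p 3.23e-07). Both calls were kept under each of the 15 alternatives tried, with log2 values of 1.01 to 1.33 in card1 and 0.94 to 1.18 in WT. At 0.5 h the gene stood at 21.0, 17.3 and 25.9 CPM with DMBQ, against 24.0, 21.7 and 23.9 CPM with DMSO in card1, where the groups overlapped (-0.11 ± 0.16). In WT at that time it stood at 31.0, 26.9 and 29.9 CPM with DMBQ, against 20.1, 25.1 and 21.1 CPM with DMSO, groups that did not overlap. The WT difference of 0.39 ± 0.15 did not pass (adjusted p 0.147), and was 0.38 (adjusted p 0.24) after correction for transcript length, the trend that set these DMBQ libraries apart. By 6 h the rise was no longer detectable. In card1 the 6 h libraries held 17.8, 14.9 and 18.1 CPM with DMBQ, against 14.9, 13.9 and 17.5 CPM with DMSO (0.15 ± 0.16). In WT they held 19.1, 24.8 and 21.8 CPM with DMBQ, against 19.5, 19.9 and 21.4 CPM with DMSO (0.11 ± 0.16). Measured against 0 h with DMBQ, the 1 h level was higher by 1.32 ± 0.14 in card1 (adjusted p 7.17e-09) and by 1.16 ± 0.14 in WT (adjusted p 3.09e-08). The DMBQ libraries at 1 h thus stood above both the solvent control and their own start. By p-value UGT76B1 ranked 31 of 19839 genes in card1 at 1 h and 72 in WT. In DMSO the 6 h level of card1 differed from its 0 h level by -0.36 ± 0.16, which did not pass (adjusted p 0.0683). It passed without DMSO 0 h replicate 2 (-0.5, adjusted p 0.0199) or DMSO 6 h replicate 3 (-0.45, 0.0419).

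**Figure D2:**
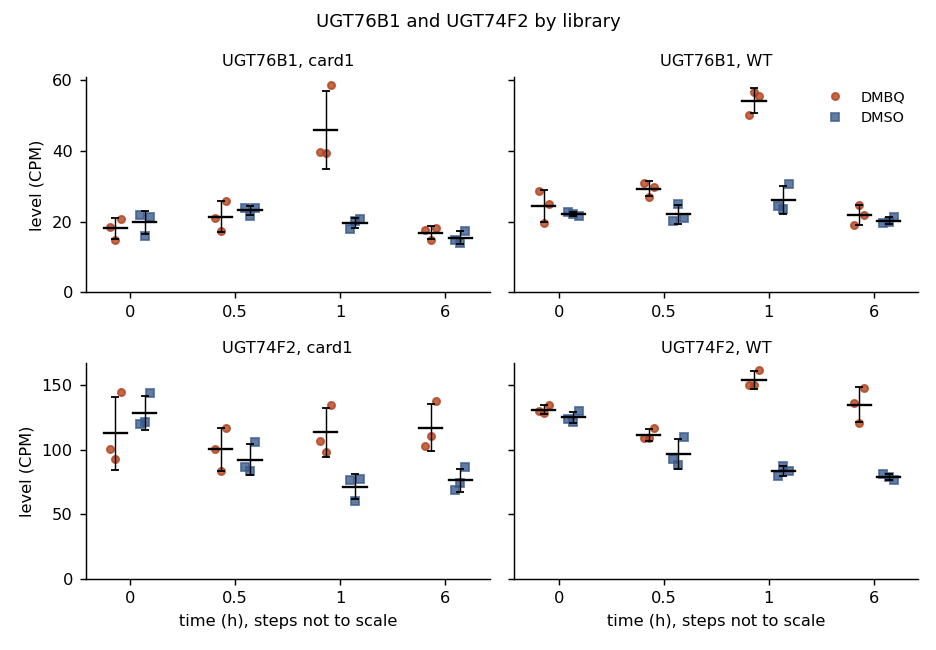
Level in CPM (y axis) of UGT76B1 (top) and UGT74F2 (bottom) in each library by time in h (x axis, steps not to scale), card1 left and WT right; circles are DMBQ, squares DMSO, the black line the mean of 3 libraries and the bar 1 SD. UGT76B1 stands out at 1 h with DMBQ, while UGT74F2 with DMBQ holds 98.5 to 162 CPM at 1 h as DMSO libraries fall to between 60.3 and 87.7 CPM.

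UGT74F2, the salicylic acid glucose ester synthase and the most abundant of the 5 per kilobase, was also higher with DMBQ at 1 h, and remained so at 6 h. At 1 h it held 107, 98.5 and 135 CPM with DMBQ, against 77.0, 60.3 and 77.1 CPM with DMSO in card1. WT at 1 h held 150, 150 and 162 CPM with DMBQ, against 80.0, 87.7 and 83.8 CPM with DMSO. Neither pair of groups overlapped, and the log2 fold change was 0.66 ± 0.14 in card1 (adjusted p 0.0029) and 0.88 ± 0.13 in WT (adjusted p 9.48e-06). At 6 h card1 held 103, 111 and 138 CPM with DMBQ, against 69.0, 74.3 and 86.4 CPM with DMSO (0.62 ± 0.13, adjusted p 0.00654). The 6 h values in WT were 136, 121 and 148 CPM with DMBQ, against 81.6, 78.9 and 76.9 CPM with DMSO (0.77 ± 0.14, adjusted p 0.000374). Relative to 0 h, the DMBQ means changed little and the DMSO means declined. With DMBQ the 1 h mean was 100% of the 0 h mean in card1 and 117% in WT. In DMSO it was 55.6% in card1 and 66.9% in WT. At 6 h the DMBQ means were 104% of the 0 h mean in card1 and 103% in WT, against 59.6% in card1 and 63.2% in WT with DMSO. In DMSO the decline at 1 h passed the test in card1 (-0.84 ± 0.14, adjusted p 1.39e-05) and in WT (-0.58 ± 0.13, adjusted p 0.00163). The decline at 6 h also passed in card1 (-0.75 ± 0.13, adjusted p 1.92e-05) and in WT (-0.66 ± 0.14, adjusted p 0.000206). With DMBQ 0 of the 6 comparisons of a later time with 0 h passed, and the difference between the agents in change from 0 h was not tested. Fitted on only the groups compared, the WT changes from 0 h with DMBQ passed, lower at 0.5 h (-0.24, adjusted p 0.0251) and higher at 1 h (0.23, adjusted p 0.0316). Without the 2 card1 DMSO libraries of 0 h that stood apart, the card1 declines were -1.01 and -0.91 and still passed. At 0.5 h the DMSO decline was -0.48 ± 0.13 in card1 (adjusted p 0.00859, and 0.0557 without card1 DMSO 0.5 h replicate 2 and 0.101 in a fit of only the groups compared). In WT it did not pass, with 93.0, 88.1 and 110 CPM at 0.5 h against 124, 122 and 130 CPM at 0 h, but it did with the replicate number as a block (-0.38, adjusted p 0.00455). The card1 calls depended on single libraries. The 1 h call was lost without DMBQ replicate 3 (0.52, adjusted p 0.0771) or DMSO replicate 2 (0.55, 0.0615), and in a fit of only the groups compared (0.67, 0.06). The 6 h call was lost without DMBQ replicate 3 (0.48, 0.134), DMSO replicate 1 (0.55, 0.0885) or DMSO replicate 2 (0.59, 0.0565). In WT the 6 h call was lost only when the libraries of replicate number 1 were left out in all groups (0.79, adjusted p 0.105), and so was the 1 h decline in DMSO (-0.56, adjusted p 0.0969).

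UGT74F1, the neighbour of UGT74F2, had no call of DMBQ against DMSO. It was rare, with 6 to 43 counts a library. At 1 h its level in card1 was 1.39 to 2.04 CPM with DMBQ, against 0.975 to 3.21 CPM with DMSO. In WT it was 1.74 to 2.04 CPM with DMBQ, against 1.8 to 2.98 CPM with DMSO. The log2 fold change was -0.47 (95% interval -1.06 to 0.12) in card1 and -0.31 (-0.82 to 0.2) in WT, and both upper bounds lie below the UGT74F2 values of the same comparisons. With DMBQ in WT, UGT74F1 was lower at 1 h, at 2.04, 1.83 and 1.74 CPM against 2.93, 4.0 and 3.24 CPM at 0 h (-0.87 ± 0.25, adjusted p 0.00813, and 0.0741 without DMBQ 0 h replicate 2). At 0.5 h the difference from 0 h was -0.72 ± 0.25 (adjusted p 0.031). That call was lost without DMBQ 0 h replicate 2 (0.17) or 3 (0.0531) and without DMBQ 0.5 h replicate 1 (0.0576) or 3 (0.135). Those 0.5 h libraries have the strong length trend, and after correction for it the value was as large and still passed (-0.79, adjusted p 0.0281). Its highest group mean was that of WT with DMBQ at 6 h, 4.3 ± 0.701 CPM (SD, n = 3). The level of UGT74F2 per kb was 47.2, 52.9 and 87.5 times that of UGT74F1 in the card1 libraries with DMBQ at 1 h, in rising order, and 66.1, 73.9 and 83.9 times in those of WT. With DMSO at 1 h the ratio was 21.6 to 55.7 in card1 and 25.3 to 43.8 in WT, and over all 48 libraries it ran between 12.4 and 87.5 with a median of 36.6. The ratio of a rare gene varies with its own counting error, and UGT74F1 shares 50 bases with a gene of the other strand.

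UGT74E2, the indole-3-butyric acid glucosyltransferase, fell to a few reads by 6 h in all 4 series, and at 1 h it was higher with DMBQ than with DMSO in WT. At 1 h card1 held 5.4, 2.4 and 14.3 CPM with DMBQ, against 1.52, 1.62 and 3.95 CPM with DMSO. WT at 1 h held 5.75, 6.68 and 6.56 CPM with DMBQ, against 0.929, 1.17 and 2.29 CPM with DMSO. The WT groups did not overlap and differed by 2.08 ± 0.54 (adjusted p 0.0222). The card1 groups overlapped, with the largest value in replicate 3. By replicate number, each card1 DMBQ library lay above its DMSO partner. The card1 difference of 1.52 ± 0.56 did not pass (adjusted p 0.385), nor did it with the replicate number as a block. The WT call was lost without DMSO replicate 1 (1.83, adjusted p 0.141) or 2 (1.94, 0.117), or without DMBQ replicate 2 (2.03, 0.0733) or 3 (2.05, 0.0678). At 0 h the gene stood at 4.31, 2.11 and 8.01 CPM with DMBQ, against 8.75, 5.0 and 10.7 CPM with DMSO in card1. In WT it stood at 8.42, 6.24 and 6.82 CPM with DMBQ, against 4.77, 8.91 and 8.81 CPM with DMSO, and neither pair of groups was called. In DMSO the 1 h mean was 29.1% of the 0 h mean in card1 (-1.71 ± 0.55, adjusted p 0.0203) and 19.5% in WT (-2.36 ± 0.56, adjusted p 0.00264). The card1 call at 1 h was lost without DMSO 0 h replicate 1 (adjusted p 0.0549) or 3 (0.0677), without DMSO 1 h replicate 1 (0.0874) or 2 (0.0753), and without the 2 libraries that stood apart (0.0579). At 0.5 h in DMSO neither genotype's decline passed, although that of card1 did with the replicate number as a block (-1.22, adjusted p 0.0236). At 6 h few reads remained, summed over the 3 libraries of a group. Card1 had 8 reads with DMBQ and 4 with DMSO, and WT had 5 with DMBQ and 3 with DMSO. Relative to 0 h that left 4.74% (95% exact interval 2.01 to 9.55) with DMBQ and 1.9% (0.512 to 4.93) with DMSO in card1. In WT it left 2.9% (0.93 to 6.88) with DMBQ and 1.89% (0.386 to 5.61) with DMSO, and these intervals cover counting error only. The 4 declines at 6 h passed the test, with adjusted p of 0.000105 with DMBQ and 5.33e-06 with DMSO in card1. In WT it was 3.33e-05 with DMBQ and 4.61e-05 with DMSO. Whether DMBQ and DMSO differed at 6 h was not detectable at this depth. The DMBQ level was 166% (44.5 to 753) of the DMSO level in card1 and 137% (26.7 to 884) in WT.

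**Figure D3:**
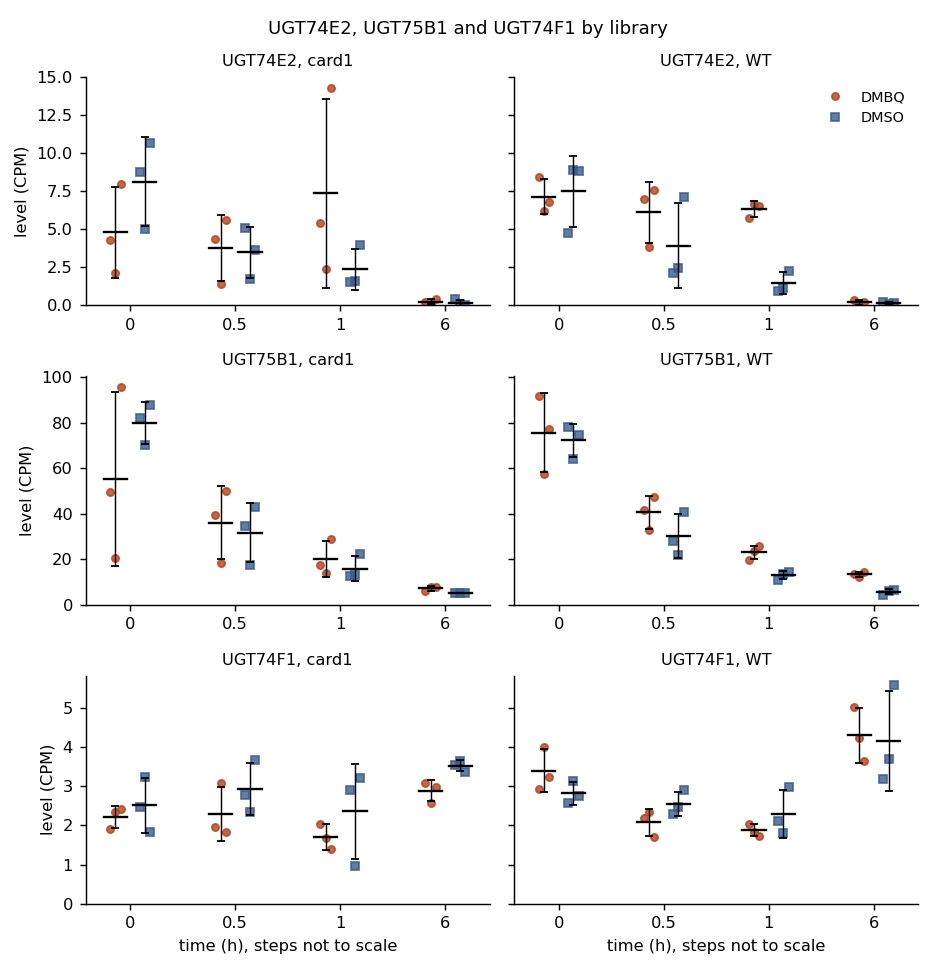
Level in CPM (y axis) of UGT74E2 (top), UGT75B1 (middle) and UGT74F1 (bottom) in each library by time in h (x axis, steps not to scale), card1 left and WT right; circles are DMBQ, squares DMSO, the black line the mean of 3 libraries and the bar 1 SD. The UGT75B1 group means fall at each step in all 4 series, to libraries of 4.38 to 14.3 CPM at 6 h. UGT74E2 with DMBQ in WT still holds 5.75 to 6.68 CPM at 1 h.

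UGT75B1 had the steadiest decline with time of the 5 genes. In DMSO card1 held 81.9, 70.0 and 87.8 CPM at 0 h, 34.6, 17.6 and 42.9 CPM at 0.5 h, 12.4, 12.8 and 22.1 CPM at 1 h and 5.11, 5.26 and 4.98 CPM at 6 h. WT in DMSO held 77.9, 64.1 and 74.5 CPM, then 28.1, 21.9 and 40.8 CPM, then 10.8, 13.5 and 14.2 CPM, and at 6 h 4.38, 6.01 and 6.37 CPM. No library of a later time reached the lowest of the 0 h libraries in either genotype. Against 0 h the log2 changes at 0.5, 1 and 6 h were -1.36 ± 0.36, -2.32 ± 0.38 and -3.95 ± 0.44 in card1. They were -1.28 ± 0.36, -2.48 ± 0.37 and -3.66 ± 0.46 in WT. All 6 were called, and those at 1 and 6 h were kept under every alternative. The 0.5 h call was lost in card1 without DMSO 0.5 h replicate 2 (adjusted p 0.059) or without the 2 libraries that stood apart (0.0574). In WT it was lost without DMSO 0 h replicate 1 (0.0565) or 3 (0.0587) or DMSO 0.5 h replicate 1 (0.0725) or 2 (0.116). With DMBQ the 6 h level was 5.94, 7.85 and 7.91 CPM in card1 and 13.5, 12 and 14.3 CPM in WT. Every DMBQ library thus lay above every DMSO library at 6 h in both genotypes. Counted in either direction, the 2 groups did not overlap for 17.6% of all genes in card1 and 19.4% in WT. The log2 fold change of DMBQ over DMSO at 6 h was 0.48 ± 0.54 in card1 (adjusted p 0.844) and 1.22 ± 0.53 in WT (adjusted p 0.44), so neither passed. The 1 h groups of WT did not overlap either, at 19.8, 23.5 and 25.7 CPM with DMBQ against 10.8, 13.5 and 14.2 CPM with DMSO (0.84 ± 0.38, adjusted p 0.429). Fitted on only the groups compared, the WT differences passed (adjusted p 0.00155 at 1 h and 1.04e-05 at 6 h). The model of all 48 libraries also holds card1 with DMBQ at 0 h, where UGT75B1 was spread over 49.5, 20.3 and 95.8 CPM, and the part of that group in the result was not tested. Against 0 h with DMBQ, the 6 h level was lower by -2.97 ± 0.4 in card1 (adjusted p 5.53e-07) and -2.5 ± 0.38 in WT (adjusted p 4.86e-06). At 1 h it was lower by -1.5 ± 0.36 in card1, a call lost without DMBQ 0 h replicate 3 (-0.83, adjusted p 0.12) and in a fit of only the groups compared (-1.49, 0.261), and by -1.71 ± 0.34 in WT (adjusted p 0.000347). At 0.5 h WT passed (-0.89 ± 0.33, adjusted p 0.0467) and card1 did not. The WT call was lost in DESeq2 (0.0517) and after correction for transcript length (0.0829). It was also lost without 5 of the 6 single libraries, DMBQ 0 h replicate 1 (0.158) or 3 (0.101) and DMBQ 0.5 h replicate 1 (0.0939), 2 (0.148) or 3 (0.0654). Without DMBQ 0 h replicate 2 the card1 difference at 0.5 h passed instead (-1.03, adjusted p 0.0417).

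Counted over the 5 genes, 2, 3 and 3 were called against 0 h in DMSO at 0.5, 1 and 6 h in card1, all lower, where 21.1%, 26.9% and 41.6% of all genes were called. In WT 1, 3 and 3 were called, all lower, where 8.45%, 18.3% and 31.2% of all genes were called. With DMBQ 0, 2 and 2 were called in card1 (8.15%, 17.0% and 32.6% of all genes) and 2, 3 and 2 in WT (26.6%, 22.9% and 32.4%), and the calls were lower except UGT76B1 at 1 h. Comparisons that hold the libraries of strong length trend had fewer calls over all genes after correction for transcript length. In card1 with DMSO 4190, 5335 and 8251 genes became 2373, 4239 and 7394 at 0.5, 1 and 6 h. In WT with DMBQ at 0.5 h 5283 genes became 2960. The comparisons with 0 h share their 0 h libraries within a genotype and agent. Time after addition and time of day cannot be told apart in this design, and DMSO libraries of all times received solvent.

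**Figure D4:**
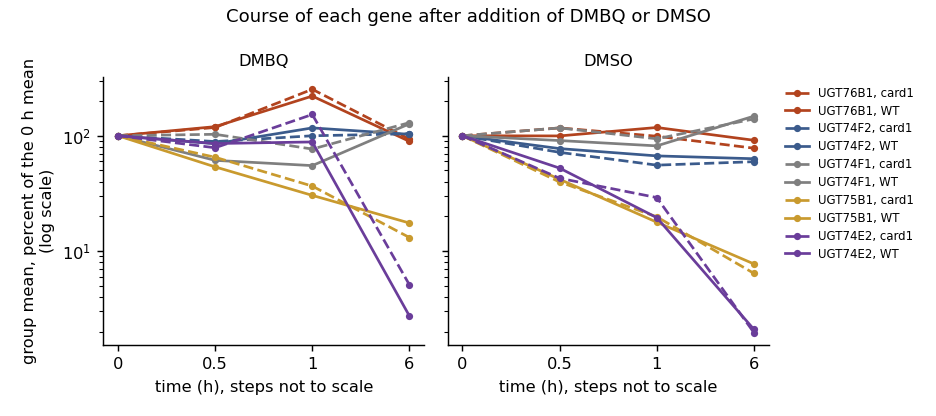
Group mean of each gene as a percentage of its 0 h mean (y axis, log scale) by time in h (x axis, steps not to scale), with DMBQ left and DMSO right; dashed lines are card1, solid lines WT. In DMSO UGT75B1 and UGT74E2 end at 1.96 to 7.73% of their 0 h means at 6 h, and with DMBQ UGT76B1 peaks at 1 h at 253% in card1 and 221% in WT.

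The response to DMBQ did not differ detectably between card1 and WT for any of the 5 genes. Of 15 tests of the difference of responses (card1 minus WT, 3 times), 0 passed with edgeR, 0 passed with DESeq2, and 1 had an unadjusted p under 0.05. Of all genes 0.0% were called at each time and in the joint test. That value was UGT76B1 at 0.5 h, -0.51 ± 0.22 (95% interval -0.94 to -0.07, adjusted p 0.425). For UGT76B1 at 1 h the difference was 0.17 (-0.23 to 0.57). For UGT74F2 it was -0.22 (-0.59 to 0.16) at 1 h and -0.16 (-0.54 to 0.23) at 6 h. For UGT74E2 at 1 h it was -0.55 (-2.2 to 1.1). These intervals do not show that the responses were alike. UGT75B1 gave -0.53 (-1.68 to 0.62) at 1 h and -0.74 (-2.3 to 0.82) at 6 h, and UGT74F1 -0.16 (-0.94 to 0.62) at 1 h.

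Between genotypes within an agent, the mean in card1 was below that in WT in 7 of 8 comparisons for UGT76B1 and for UGT74F2. For each gene 1 of these passed, at 0.5 h with DMBQ for UGT76B1 and at 1 h with DMBQ for UGT74F2. The share of all genes with such a pattern was not counted. With DMBQ at 0.5 h, UGT76B1 was lower in card1 by -0.45 ± 0.15 (adjusted p 0.0213), with groups that did not overlap. In that comparison 26.1% of all genes were called, and all its WT libraries have the strong length trend. After correction for transcript length the value was -0.39 (adjusted p 0.0709), and the call was also lost without WT replicate 1 (0.0769) or 3 (0.0564) or card1 replicate 1 (0.0552) or 2 (0.158). At 1 h with DMBQ, UGT74F2 averaged 113 ± 19.0 CPM in card1 and 154 ± 7.07 CPM in WT (SD, n = 3 each), a difference of -0.44 ± 0.13 (adjusted p 0.0305) where 7.38% of all genes were called. That call was lost without WT replicate 1 (0.0535), 2 (0.0696) or 3 (0.112), or without card1 replicate 1 (0.126) or 2 (0.178). The counts of called genes were 0, 1, 1 and 0 of 5 at 0, 0.5, 1 and 6 h with DMBQ, where 3.87% and 7.05% of all genes were called at 0 and 6 h. The 0 h share stands for 768 genes, and 1235 were called with the replicate number as a block. UGT75B1 with DMBQ at 6 h held 5.94, 7.85 and 7.91 CPM in card1, against 13.5, 12 and 14.3 CPM in WT, without overlap. The difference of -0.89 ± 0.47 did not pass (adjusted p 0.268), but did in a fit of only the groups compared (-0.89, adjusted p 0.000464). UGT76B1 at the same time was also lower in every card1 library, and its difference of -0.36 ± 0.15 (adjusted p 0.154) passed in that fit as well (adjusted p 0.0376). UGT76B1 with DMBQ at 0 h held 18.6, 14.9 and 20.9 CPM in card1 and 28.8, 19.7 and 24.9 CPM in WT, a difference of -0.41 ± 0.15 (adjusted p 0.109) that passed with the replicate number as a block (-0.42, adjusted p 0.0435). At 1 h with DMBQ it passed without card1 replicate 3 (-0.45, adjusted p 0.0301, against -0.25 and 0.262 with it). In DMSO 0 of 5 were called at any time by edgeR or DESeq2, where 12.7%, 6.11%, 3.66% and 5.19% of all genes were called at 0, 0.5, 1 and 6 h. An unadjusted p under 0.05 was reached by 0, 0, 1 and 1 of 5 at these times, both for UGT76B1. The share of all genes in DMSO at 0 h stands for 2514 genes. It was 2925 with the replicate number as a block and 1154 after correction for transcript length. UGT76B1 in DMSO at 6 h held 14.9, 13.9 and 17.5 CPM in card1 and 19.5, 19.9 and 21.4 CPM in WT, without overlap (-0.4 ± 0.16, adjusted p 0.148). The summed shoot markers also differed between the genotypes. In DMSO at 0 h they held 35900 to 39800 CPM in card1, against 27000 to 30800 CPM in WT. With DMBQ at 1 h they held 29000 to 34600 CPM in card1, against 22800 to 28400 CPM in WT, and their part in the differences of UGT76B1 and UGT74F2 was not tested.

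Among other genes of these pathways, in lists chosen with earlier results of these data known, salicylic acid genes held most of the calls with DMBQ. Of 14 salicylic acid signalling genes, 12 were tested. Called higher were 0, 3 and 0 in card1 at 0.5, 1 and 6 h and 3, 5 and 0 in WT, with 0 lower. Beside these counts and those of the lists that follow, 0.151%, 1.18% and 1.05% of all genes were called in card1. In WT the shares were 2.45%, 2.78% and 1.22%. The median log2 change of the signalling list at 1 h was 0.1 in card1 and 0.65 in WT, beside 0.0 over all genes in both. NPR4, a salicylic acid receptor that represses defence genes, averaged 23.5 ± 5.92 CPM with DMBQ and 11.1 ± 1.43 CPM with DMSO in card1 at 1 h (1.05 ± 0.16, adjusted p 1.17e-05; SD and n = 3 for each mean). In WT it averaged 28.0 ± 3.7 with DMBQ and 12.6 ± 1.59 CPM with DMSO (1.16 ± 0.14, adjusted p 5.27e-08). NPR3, its relative, was higher in WT at 1 h (64.9 ± 9.93 with DMBQ and 32.6 ± 1.5 CPM with DMSO, adjusted p 0.000181). In card1 NPR3 held 53.9 ± 14.4 CPM with DMBQ and 33.2 ± 6.15 CPM with DMSO. That difference of 0.68 ± 0.18 fell just short of the threshold (adjusted p 0.0597). NIMIN2, which binds the co-activator NPR1, held 1.95 ± 0.754 CPM with DMBQ and 0.365 ± 0.114 CPM with DMSO in card1 at 1 h. In WT it held 2.8 ± 0.863 with DMBQ and 0.589 ± 0.2 CPM with DMSO. The glutaredoxin gene GRX480 was called in both genotypes at 1 h. It held 3.72 ± 2.6 CPM with DMBQ and 0.179 ± 0.213 CPM with DMSO in card1, and 4.23 ± 1.05 with DMBQ and 0.109 ± 0.0379 CPM with DMSO in WT. The fifth gene called in WT at 1 h was the transcription factor gene WRKY70 (1.35 ± 0.33, adjusted p 0.0137), named after its value was seen.

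Of 13 genes of salicylic and pipecolic acid metabolism, 9 were tested, of which 0, 1 and 1 were called higher in card1 at 0.5, 1 and 6 h and 2, 2 and 1 in WT, with 0 lower. DMR6, which hydroxylates salicylic acid, averaged 108 ± 39.0 CPM with DMBQ and 34.5 ± 9.76 CPM with DMSO in card1 at 1 h (1.62 ± 0.22, adjusted p 5.63e-06). In WT it averaged 129 ± 19.4 with DMBQ and 24.0 ± 3.65 CPM with DMSO (2.43 ± 0.22, adjusted p 4.2e-10). ICS1, which makes the isochorismate precursor, was higher in WT at 0.5 h (0.55 ± 0.15, adjusted p 0.0392) and 1 h (0.59 ± 0.15, adjusted p 0.0128). Of 18 genes of auxin conjugation and indole-3-butyric acid turnover, all tested, 0, 1 and 1 were higher in card1 and 0, 1 and 1 in WT, and 1 was lower in WT at 0.5 h. The riser was ABCG37, an exporter of indole-3-butyric acid, with 103 ± 22.2 CPM with DMBQ and 30.1 ± 2.46 CPM with DMSO in card1 at 1 h (1.77 ± 0.15, adjusted p 4.78e-11). In WT it held 156 ± 21.9 with DMBQ and 33.8 ± 3.12 CPM with DMSO (2.21 ± 0.14, adjusted p 8.96e-15). At 6 h ABCG37 remained higher by 1.53 ± 0.14 in card1 and 1.33 ± 0.14 in WT. GH3.17, which joins auxin to glutamate, was the lower one (-0.57 ± 0.14, adjusted p 0.0172). Of 13 genes of abscisic acid conjugation and turnover, 11 were tested and 1 was called, CYP707A1, an abscisic acid hydroxylase gene, in WT at 1 h (0.75 ± 0.22, adjusted p 0.0479; named after its value was seen).

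Relatives of the 5 genes stayed without a call in each of the 6 comparisons of DMBQ with DMSO after 0 h. The counts were 0 of 7 tested in the UGT74 and UGT75 groups and 0 of 9 tested of 12 UGT76 genes. For UGT84 the count was 0 of 3 tested of 6 genes. Such comparisons called 0.151 to 2.78% of all genes, so 0 calls in lists this short do not set the relatives apart. In WT at 1 h the median log2 changes of these lists were 0.05, -0.11 and 0.07, beside 0.0 over all genes. Genes of the mitochondrial retrograde response, a stress pathway whose known targets include UGT74E2, had 0 of 7 tested genes called in each of the 6 comparisons. The same limit holds for this short list. Among root markers, 1 of 8 was lower with DMBQ in card1 and 3 of 8 in WT at 1 h. All-gene shares were 1.18% in card1 and 2.78% in WT. The median log2 change of the root markers was -0.45 in card1 and -0.77 in WT. The root hair gene EXPA7 was called in both, at 4.67 ± 0.471 CPM with DMBQ and 8.96 ± 1.14 CPM with DMSO in card1. In WT it held 4.95 ± 0.448 with DMBQ and 10.3 ± 0.195 CPM with DMSO. RHS12 (-1.58 ± 0.23) and PRP3 (-1.08 ± 0.25) were called in WT only. The summed root markers at 1 h were 2220 to 2560 CPM with DMBQ and 2010 to 2460 CPM with DMSO in card1. In WT they were 1800 to 1880 CPM with DMBQ, against 1820 to 2050 CPM with DMSO. Their part in the higher levels of UGT76B1 and UGT74F2 with DMBQ was not tested.

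By Pearson correlation of group-mean log2 CPM over the 16 groups, among 17890 genes, the profile most like that of UGT76B1 was AT5G22140 (r = 0.965), then AT3G51540 (0.913) and AT3G07570 (0.91). UGT74F2 was most like CRK3, a cysteine-rich receptor-like kinase gene (0.905), DOGT1, a glucosyltransferase gene acting on brassinosteroids and deoxynivalenol (0.896), and CP1 (0.877). UGT75B1 had BGLU10, a beta-glucosidase gene (0.976), AT5G61820 (0.975) and AER, an alkenal reductase gene (0.97). UGT74E2 had AT4G01870 (0.968), the nitrilase gene NIT4 (0.965) and the cytochrome P450 gene CYP81D8 (0.954), and its correlation with UGT75B1 was 0.89. UGT74F1 had AT5G01720 (0.942), AT5G08430 (0.929) and RAP2.7 (0.928), and its correlation with UGT74F2 was -0.12. The points share libraries and depth, and time makes up much of the variation across them.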

How the data were processed

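The authors deposited whole-number read counts per gene for 48 libraries. Per the submitters' processing notes, HISAT2 2.1.0 and HTSeq 0.6.1 were applied with the TAIR10 genome. The sources used here do not state the annotation version or the strand setting. The library kit was KAPA mRNA HyperPrep, per the labels' protocols. Besides 33602 genes, the table has 5 summary lines without a gene name, excluded throughout. By library, unaligned reads made up 2.645 to 7.247% of all reads and reads without a unique place 6.526 to 13.319%, while 1.277 to 2.083% lay outside annotated features and 0.656 to 0.735% could not be assigned to 1 gene. Of the gene identifiers, 32835 (97.72%) had an entry in the TAIR10.1 annotation, which gave symbols, coordinates and lengths. Genes without a symbol are given by identifier.

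Genes were kept with edgeR 4.0.16 in R 4.3.3 (filterByExpr, minimum count 10), which left 19839. TMM factors of 0.933 to 1.088 scaled the 48 libraries, which entered 1 robust quasi-likelihood model with 16 group means. In each of 31 comparisons and 3 joint tests, p-values were adjusted by Benjamini-Hochberg across every gene tested and called at 0.05. Errors after a log2 value are the model's SE, and the 95% intervals of UGT74E2 ratios are exact for counting error. The steps were tested on simulated data.

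The alternatives were DESeq2 1.42.0, RLE size factors, no filter on low counts, the replicate number as a block, a fit of only the groups compared, a per-library correction of the trend with transcript length, leaving out all libraries of 1 replicate number, and leaving out each single library. Leaving out the 2 card1 DMSO libraries of 0 h with a strong length trend was added after seeing the data. Same-numbered libraries deviated together, with a correlation over 0.1 in every pair, in 8 of 28 comparisons (lowest -0.1, highest 0.38 over all). In those the numbers were taken to pair the samples by that measurement, since the labels do not say that a number marks a shared batch. The model behind the reported p-values had no replicate block, so they do not use this pairing. The block was run only as an alternative.

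The 5 genes and all lists were chosen with earlier results of these data known. The genes named were the 5 in every comparison, up to 4 genes a list with the smallest adjusted p among those called in the joint WT test, and for each of the 5 the 3 genes of most similar profile whose average log2 CPM reached 1.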

Additional observations from a re-analysis of the deposited data

How the results depend on the processing

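Over 170 results for the 5 genes and their alternatives, 2557 values were recomputed: 2456 kept the direction and side of the threshold, 76 fell short of it, 25 newly passed it and 0 called values changed sign; 143 values below the threshold in both fits changed sign. Of 39 calls, 21 held under every alternative run, UGT76B1 at 1 h in both genotypes and UGT74F2 at 1 h in WT among them. The count of card1 against WT calls with DMBQ, 2 as reported, was 1 after length correction and 4 in a fit of only the groups compared; in DMSO it was 1 against 0 with the replicate block (UGT76B1 at 1 h, adjusted p 0.0487). Leaving out all libraries of a number or a single library gave 2 to 4 calls of DMBQ against DMSO in WT (4 as reported), 1 to 3 in card1 (3), 0 to 2 at 0 h (0), 0 to 3 for card1 against WT with DMBQ (2), 9 to 16 for later times against 0 h in DMSO (15) and 7 to 12 with DMBQ (11). In the 20 comparisons whose numbers were not taken as pairs, every sample correlated best with its own number in 7. The replicate block brought the joint WT test to 4 of 5 genes against 2 as reported, adding UGT74E2 (adjusted p 0.00144) and UGT75B1 (0.0272). Besides the calls given beside the results, it brought past the threshold UGT76B1 in card1 DMSO at 6 h against 0 h (0.0383) and UGT74F2 in WT DMBQ at 0.5 h against 0 h (0.0464), and it ended no call. Without the libraries of replicate number 3, card1 DMSO at 0 h holds only its 2 libraries of strong length trend. There UGT74F2 (-0.32, adjusted p 0.0126) and UGT75B1 (-1.11, 0.0397) passed as lower with DMBQ, among 3589 genes called in either direction. After length correction of all libraries they were -0.15 (0.821) and -0.54 (0.688). Where 1 library was left of a group, it was assumed to vary like the other groups. Depth limits UGT74E2 at 6 h and UGT74F1 throughout.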
